A study of Mus musculus with 8 samples.

Results

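The 10 genes described here, Ncr1, Klrb1c, Klrk1, Klrd1, Gzma, Gzmb, Prf1, Nkg7, Eomes and Ifng, mark natural killer (NK) cells and cytotoxic lymphocytes. They were measured in mouse dorsal skin treated with imiquimod (IMQ), a Toll-like receptor agonist that induces psoriasis-like inflammation. They were taken as the probe sets for which the platform annotation gives 1 of these symbols and no other. Each gene had 1 such probe set, so 10 of 41345 probe sets, or 10 of 22180 named genes, are described. A further probe set shared by Klrb1c and Klrb1a, and another shared by Prf1 and COX2, were left out by this rule.

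RNA of each of 8 labels was hybridised to 1 Affymetrix expression array. The alloferon arrays were KO_IMQ_Allo and KO_Allo, the other arrays of the knockout were KO_IMQ, KO_IMQ_B, KO_CTRL and KO_CTRL-B, and the wild-type arrays were WT_IMQ and WT_CTRL. All mice were male; KO arrays carry the strain label B6.Cg-Il22ra1tm1.1Koll/J, a targeted allele of the IL-22 receptor alpha chain, and WT arrays the label C57BL/6. Per the labels, 83.3 mg of 5% IMQ cream went onto back and ears every day for days 1 to 7, with vehicle or alloferon cream 6 hours later. The age of the mice, the dose of alloferon, the meaning of B and any pooling of mice are not given in the sources used here, although 4 mice per group are stated. Which arrays received vehicle cream is not given either, so an array without Allo in its label is called an array without alloferon. There is thus 1 array per label, and p-values reflect no more than how single arrays varied, part of which may be technical.

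NK cells kill stressed or infected cells without prior immunisation, and cytotoxic T cells do so after recognising an antigen. Both store perforin and granzymes in granules that are released onto the target cell, and both secrete interferon gamma, which activates macrophages and raises antigen presentation. Skin holds few NK cells, while the epidermis of mice holds resident gamma delta T cells that also carry the NKG2D receptor. Alloferon is a peptide isolated from blowfly larvae and is known as an activator of NK cells, which is why its arrays are examined first.

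The stretches before the transcription starts of Gzmb, Nkg7 and Ncr1 are shown because T-box factors such as Eomes, itself among the 10, and RUNX factors are known regulators of cytotoxic genes. Sequences are those of RefSeq on GRCm38.p6, each 250 bases ending just before the start and read 5′ to 3′ on the strand of the gene. Capitals mark the RUNX core TGTGGTT in Gzmb (chr14:56262335-56262584, minus strand) and Ncr1 (chr7:4337465-4337714, plus strand), and the T-box core GGTGTGA in Nkg7 (chr7:43436888-43437137, plus strand).
Gzmb: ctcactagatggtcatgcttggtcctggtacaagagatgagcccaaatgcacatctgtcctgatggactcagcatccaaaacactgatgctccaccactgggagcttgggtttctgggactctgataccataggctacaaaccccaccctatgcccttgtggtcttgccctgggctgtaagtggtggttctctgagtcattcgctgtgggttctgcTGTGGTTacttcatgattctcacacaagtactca
Nkg7: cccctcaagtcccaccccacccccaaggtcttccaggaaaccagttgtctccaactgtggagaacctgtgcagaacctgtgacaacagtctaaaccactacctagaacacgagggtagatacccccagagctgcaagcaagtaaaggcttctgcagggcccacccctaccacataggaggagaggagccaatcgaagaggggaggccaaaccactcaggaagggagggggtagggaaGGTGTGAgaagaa
Ncr1: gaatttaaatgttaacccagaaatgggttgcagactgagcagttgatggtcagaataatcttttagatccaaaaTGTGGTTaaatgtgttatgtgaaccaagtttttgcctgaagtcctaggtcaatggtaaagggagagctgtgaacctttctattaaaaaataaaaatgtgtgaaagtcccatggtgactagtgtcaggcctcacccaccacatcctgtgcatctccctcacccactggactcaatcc
The core begins 34 bases before the start in Gzmb, 13 in Nkg7 and 176 in Ncr1.

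Both strands of these 250-base windows were searched, and none of the 3 windows shown held both motifs. Of the 9 members with a window in the RefSeq table (Klrd1 is named only), 4 held the RUNX core, namely Ncr1, Klrk1, Gzma and Gzmb, while 4.40% of all 32851 windows did. The T-box core was found in 1 of the 9, Nkg7, and in 3.33% of all windows. Klrb1c, Prf1, Eomes and Ifng had a window that held neither core, and all 3 windows shown are from members with a match. The letters were chosen after the sequences had been seen, and a match is a description of the letters only.

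The values are log2 levels from robust multi-array averaging (RMA). The medians of the arrays lay within 0.05 log2 units of each other and no array pair was identical. Keratinocyte markers (5 measured) averaged 11.32 to 12.10 and fibroblast markers (6 measured) 11.21 to 11.70 on the 8 arrays, above the background line defined next on each of them. Il22ra1, the targeted gene, read 8.59 to 9.40 on the 6 KO arrays, against 8.64 on WT_IMQ and 8.23 on WT_CTRL. No KO array read below WT_CTRL, and only 1, KO_CTRL-B, read below WT_IMQ. Whether its probe set covers the altered part of the gene is not known, so the genotype rests on the labels. KO_CTRL stood apart from the other arrays without IMQ in its hair follicle markers, which averaged 7.55 against 9.19 to 10.17. KO_CTRL and WT_CTRL also held more of the skeletal muscle markers, 10.99 and 10.79 against 8.10 to 9.11 on the other 6 arrays.

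As a guide to background, the 1088 olfactory receptor genes, which have no known main role in skin, had a 95th percentile of 5.33 to 5.48 on the 8 arrays. Prf1 and Nkg7 lay above it on all 8 arrays. The other 8 members, including Ncr1, Klrb1c and Eomes, the markers that define NK cells, lay below it on all 8 arrays. The identity of the cells behind these 8 probe sets could therefore not be checked, and a level below this line does not show that the gene is silent. Of 9 T cell markers measured, 2 lay above the line on all 8 arrays, among them Cd3e at 6.38 to 7.42. Cd3d lay above it on 2 arrays and Cd2 on 0. Cd8a and Cd8b1, which mark killer T cells, also lay above it on 0. In whole skin, fewer cells of a type and less RNA per cell cannot be told apart.

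**Figure D1:**
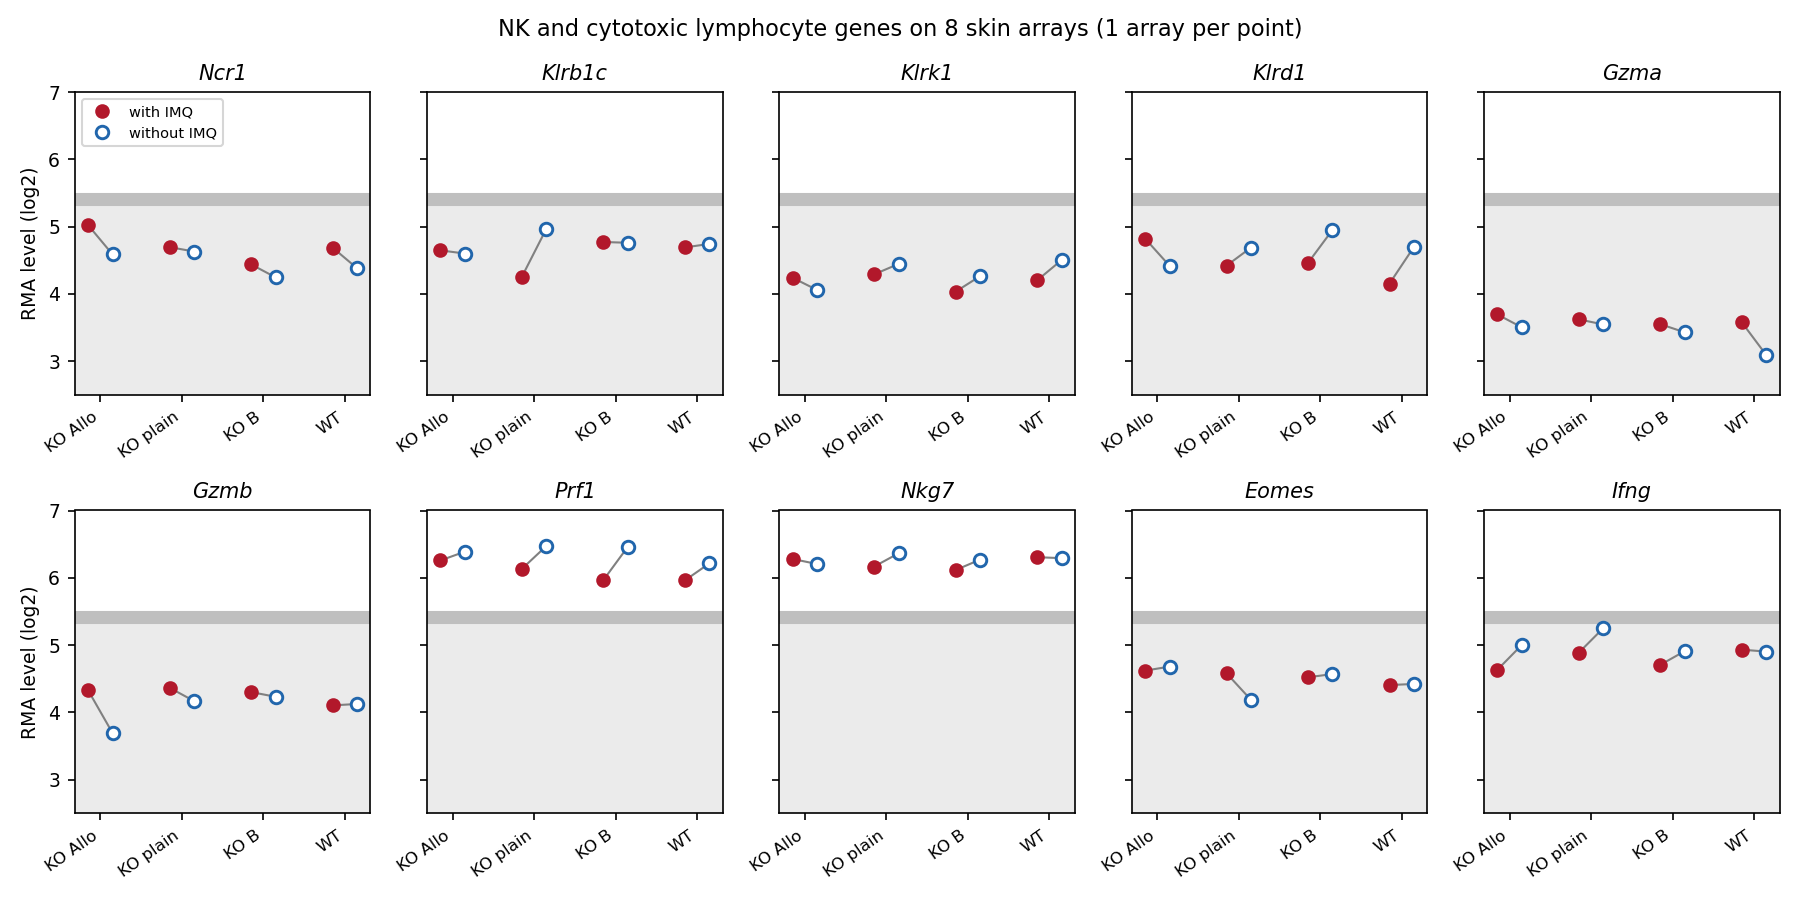
RMA level (log2, vertical axis) of each of the 10 genes in the alloferon, plain and B pairs of KO arrays and in the WT pair; each point is 1 array, filled with IMQ and open without, and a line joins a pair. The dark grey band spans the 95th percentiles of olfactory receptor genes over the arrays (5.33 to 5.48) and light grey lies under it; Prf1 and Nkg7 lie above the band and the other 8 genes below it.

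The range between a gene's highest and lowest array was 0.25 (Nkg7) to 0.80 (Klrd1) log2 units, with a median of 0.61, where the median over all genes was 0.55 and that of olfactory receptor genes 0.69. A range of 1 log2 unit or more was reached by 0 of 10 members, by 3113 of 22180 genes and by 180 of 1088 olfactory receptor genes. The mean of the 10 members deviated from its overall level by 0.09 on KO_IMQ_Allo and -0.05 on KO_Allo, and over the other 6 arrays by -0.08 (KO_IMQ_B) to 0.11 (KO_CTRL). No array was highest for most members; KO_CTRL was highest for 4 and KO_IMQ_Allo for 2.

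The first comparison asks whether the NK and cytotoxic genes differ with alloferon. In limma 0 of 10 members differed between the 2 alloferon arrays and the 4 other KO arrays, with IMQ in the fit and p-values adjusted over all genes. The smallest adjusted p of a member was 0.962. Of all 22180 genes 0% passed as well, so the fit called nothing anywhere; an unadjusted p under 0.05 was found for 0 members and for 4.65% of all genes. The median difference of the members was 0.00095 log2 units, beside 0.0041 over all genes, with 5 members higher and 5 lower. Their 95% intervals all lay between -0.61 and 0.70 log2 units, so larger shifts of the mean over both IMQ states lay outside them, on a scale where RMA compresses dim genes.

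Ncr1, which encodes the activating receptor NKp46, had the most positive difference. With IMQ, Ncr1 read 5.02 on KO_IMQ_Allo, against 4.69 on KO_IMQ, 4.44 on KO_IMQ_B and 4.69 on WT_IMQ. Without IMQ, Ncr1 read 4.59 on KO_Allo, against 4.63 on KO_CTRL, 4.25 on KO_CTRL-B and 4.38 on WT_CTRL. KO_IMQ_Allo was thus the highest array, whereas KO_Allo lay between both KO arrays without alloferon. The fitted difference was 0.30 ± 0.16 log2 units (SE; adjusted p = 0.962 in limma), and B and plain arrays themselves differed by -0.26 with IMQ and -0.38 without. It was 0.15 without KO_IMQ_Allo and 0.46 without KO_Allo.

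Gzmb, which encodes the granule protease granzyme B, had the most negative difference. With IMQ, Gzmb read 4.33 on KO_IMQ_Allo, against 4.37 on KO_IMQ, 4.30 on KO_IMQ_B and 4.10 on WT_IMQ. Without IMQ, Gzmb read 3.69 on KO_Allo, against 4.17 on KO_CTRL, 4.23 on KO_CTRL-B and 4.12 on WT_CTRL. KO_Allo was the lowest of the 8 arrays and the other 7 lay within 4.10 to 4.37. The fitted difference was -0.26 ± 0.14 (adjusted p = 0.962), at a level below the olfactory receptor line on every array. It was -0.0058 without KO_Allo and -0.51 without KO_IMQ_Allo.

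The 3 receptor genes of the killer cell lectin-like family each had a negative alloferon difference that did not pass, and each read lower on KO_Allo than on KO_CTRL and KO_CTRL-B. Klrd1 encodes CD94, which pairs with NKG2 chains to read class I molecules. With IMQ, Klrd1 read 4.82 on KO_IMQ_Allo, against 4.42 on KO_IMQ, 4.46 on KO_IMQ_B and 4.15 on WT_IMQ. Without IMQ, Klrd1 read 4.42 on KO_Allo, against 4.69 on KO_CTRL, 4.95 on KO_CTRL-B and 4.70 on WT_CTRL. The alloferon array was therefore highest with IMQ and lowest without it, and the difference over both was -0.01 ± 0.20 (adjusted p = 0.997). Klrk1 encodes NKG2D, a receptor for stress-induced ligands. Over the 8 arrays Klrk1 ranged from 4.03 to 4.50, with 4.24 on KO_IMQ_Allo and 4.06 on KO_Allo, and its alloferon difference was -0.11 ± 0.15 (adjusted p = 0.968). Klrb1c encodes the NK1.1 antigen by which NK cells of this strain are sorted. It read 4.65 on KO_IMQ_Allo and 4.60 on KO_Allo, inside its range of 4.26 to 4.97, with a difference of -0.07 ± 0.19 (adjusted p = 0.984).

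The granule genes other than Gzmb differed less. Gzma, which encodes the protease granzyme A, read 3.69 on KO_IMQ_Allo and 3.50 on KO_Allo, against 3.62 on KO_IMQ, 3.55 on KO_IMQ_B, 3.55 on KO_CTRL and 3.43 on KO_CTRL-B (difference 0.06 ± 0.11, adjusted p = 0.974). Prf1 encodes perforin, which forms pores in the membrane of the target cell. It read 6.26 on KO_IMQ_Allo and 6.39 on KO_Allo, against 6.13 on KO_IMQ, 5.97 on KO_IMQ_B, 6.47 on KO_CTRL and 6.46 on KO_CTRL-B (0.06 ± 0.12, adjusted p = 0.978). For Nkg7, which encodes a granule membrane protein needed for exocytosis, the alloferon arrays read 6.28 with IMQ and 6.20 without, inside a range of 6.12 to 6.36 (0.01 ± 0.12, adjusted p = 0.995). The perforin and Nkg7 probe sets are the 2 above the olfactory receptor line, and their 95% intervals for alloferon were -0.23 to 0.36 and -0.27 to 0.29 log2 units.

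Eomes encodes the T-box factor that specifies mature NK cells. It read 4.62 on KO_IMQ_Allo, against 4.58 on KO_IMQ, 4.52 on KO_IMQ_B and 4.41 on WT_IMQ. On KO_Allo it read 4.68, against 4.19 on KO_CTRL, 4.57 on KO_CTRL-B and 4.42 on WT_CTRL. Eomes was the 1 member of 10 with the same sign in all 4 pairs of an alloferon array and a KO array of the same IMQ status, a pattern that 23.1% of all genes showed. Its difference was 0.19 ± 0.15 (adjusted p = 0.962). Ifng encodes interferon gamma. It was lowest on KO_IMQ_Allo, at 4.63, against 4.89 on KO_IMQ, 4.71 on KO_IMQ_B and 4.93 on WT_IMQ. Without IMQ it read 5.00 on KO_Allo, against 5.25 on KO_CTRL, 4.91 on KO_CTRL-B and 4.90 on WT_CTRL (-0.12 ± 0.14, adjusted p = 0.968).

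**Figure D2:**
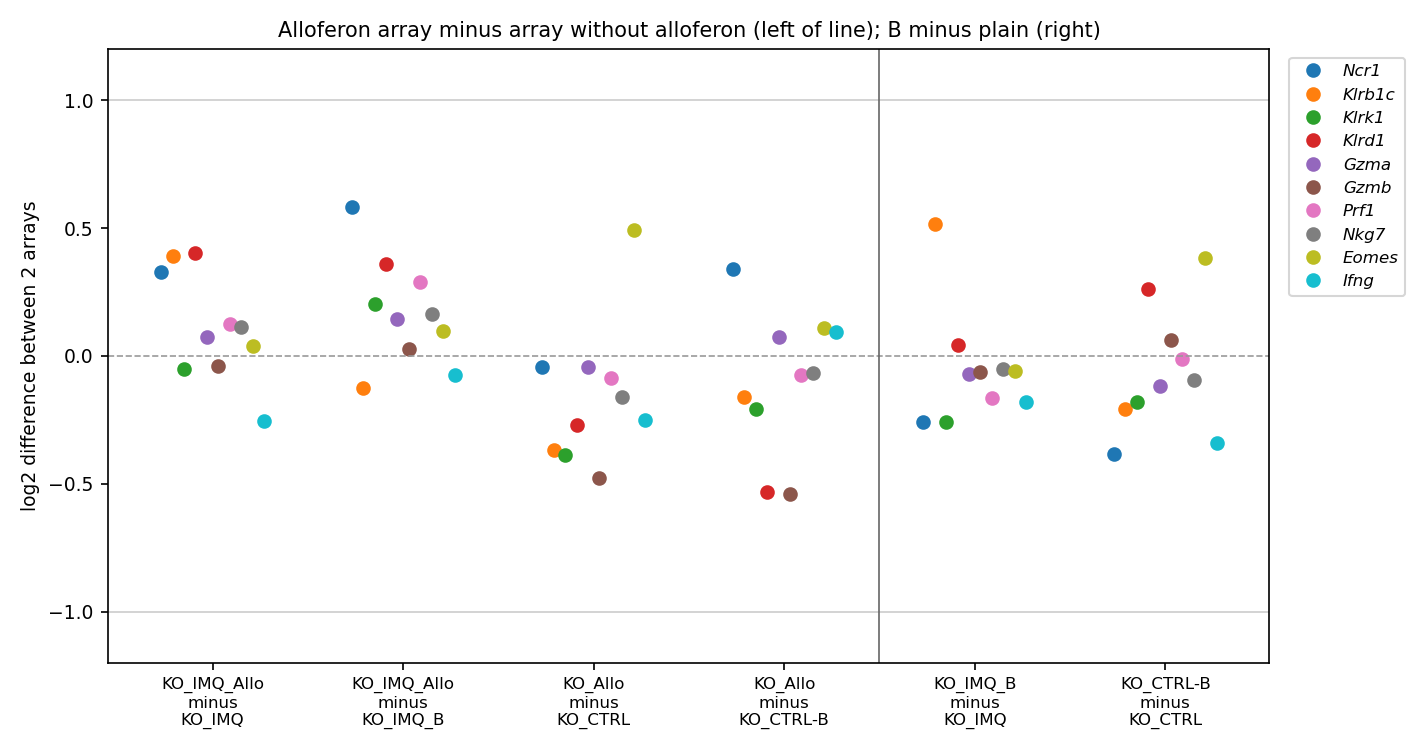
Difference in log2 level (vertical axis) between 2 arrays for each of the 10 genes (colours); the 4 columns left of the vertical line set an alloferon array against a KO array of the same IMQ status, and the 2 columns right of it set a B array against a plain array. The points left of the line lie between -0.54 and 0.58 and those right of it between -0.38 and 0.52.

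Array by array, 0 members reached a difference of 1 log2 unit between an alloferon array and a KO array of the same IMQ status. Among all genes 1.48% did for KO_IMQ_Allo against KO_IMQ, 1.27% against KO_IMQ_B, 3.15% for KO_Allo against KO_CTRL and 1.24% against KO_CTRL-B. Between B and plain arrays, neither of which has Allo in its label, 0 members and 0.915% of all genes did with IMQ. Without IMQ, 0 members and 2.84% of all genes did. The median size of the members' differences was 0.12 and 0.15 for KO_IMQ_Allo against KO_IMQ and KO_IMQ_B, and 0.26 and 0.14 for KO_Allo against KO_CTRL and KO_CTRL-B. For B against plain arrays it was 0.12 with IMQ and 0.19 without, so KO_Allo against KO_CTRL had the largest of the 6 values and the other 5 lay between 0.12 and 0.19. Tissue content moved alongside: muscle markers averaged 8.10 on KO_IMQ_Allo, against 8.68 on KO_IMQ and 8.19 on KO_IMQ_B, and 8.71 on KO_Allo, against 10.99 on KO_CTRL and 9.11 on KO_CTRL-B. Neutrophil markers (9 measured) averaged 6.72 on KO_IMQ_Allo, against 7.48 on KO_IMQ and 7.44 on KO_IMQ_B, and 5.86 on KO_Allo, against 5.01 on KO_CTRL and 5.06 on KO_CTRL-B. The part of these contents in the members' values was not tested.

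The second comparison asks whether the response to IMQ itself differed with alloferon. Between the alloferon pair and the plain and B pairs of KO arrays, 8 members had a more positive IMQ difference and 2 a more negative. The largest was that of Klrd1, at 0.78 ± 0.26 log2 units (SE; 95% interval 0.12 to 1.45; adjusted p = 0.862 in limma). Klrd1 differed by 0.40 between KO_IMQ_Allo and KO_Allo, against -0.27 between KO_IMQ and KO_CTRL and -0.49 between KO_IMQ_B and KO_CTRL-B. Gzmb followed at 0.50 ± 0.22 (adjusted p = 0.934), with 0.64 in the alloferon pair, against 0.20 in the plain and 0.07 in the B pair. Klrb1c measured 0.40 ± 0.37, Klrk1 0.37 ± 0.27, Ncr1 0.31 ± 0.33, Prf1 0.29 ± 0.23, Nkg7 0.25 ± 0.22 and Gzma 0.09 ± 0.23, and Ifng and Eomes measured -0.09 ± 0.30 and -0.23 ± 0.30.

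In this second comparison 0 of 10 members and 0% of all genes passed. An unadjusted p under 0.05 was found for 1 member, Klrd1, and for 5.46% of all genes. The members' median was 0.30 log2 units beside 0.0075 over all genes. In the same fit the medians were -1.56 for neutrophil, -0.93 for macrophage and -1.21 for mast cell markers, with an unadjusted p under 0.05 for 6 of 9, 6 of 9 and 5 of 8, and 0.99 for muscle and 1.45 for adipocyte markers. Their part in the members' values was not tested. All 10 values rest on the same 2 alloferon arrays and are not independent of each other. The fit had 2 residual degrees of freedom, and Ccl3, a chemokine gene outside the 10, did not pass at -5.60 ± 1.08 (adjusted p = 0.712), so the fit called no gene even at that size.

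**Figure D3:**
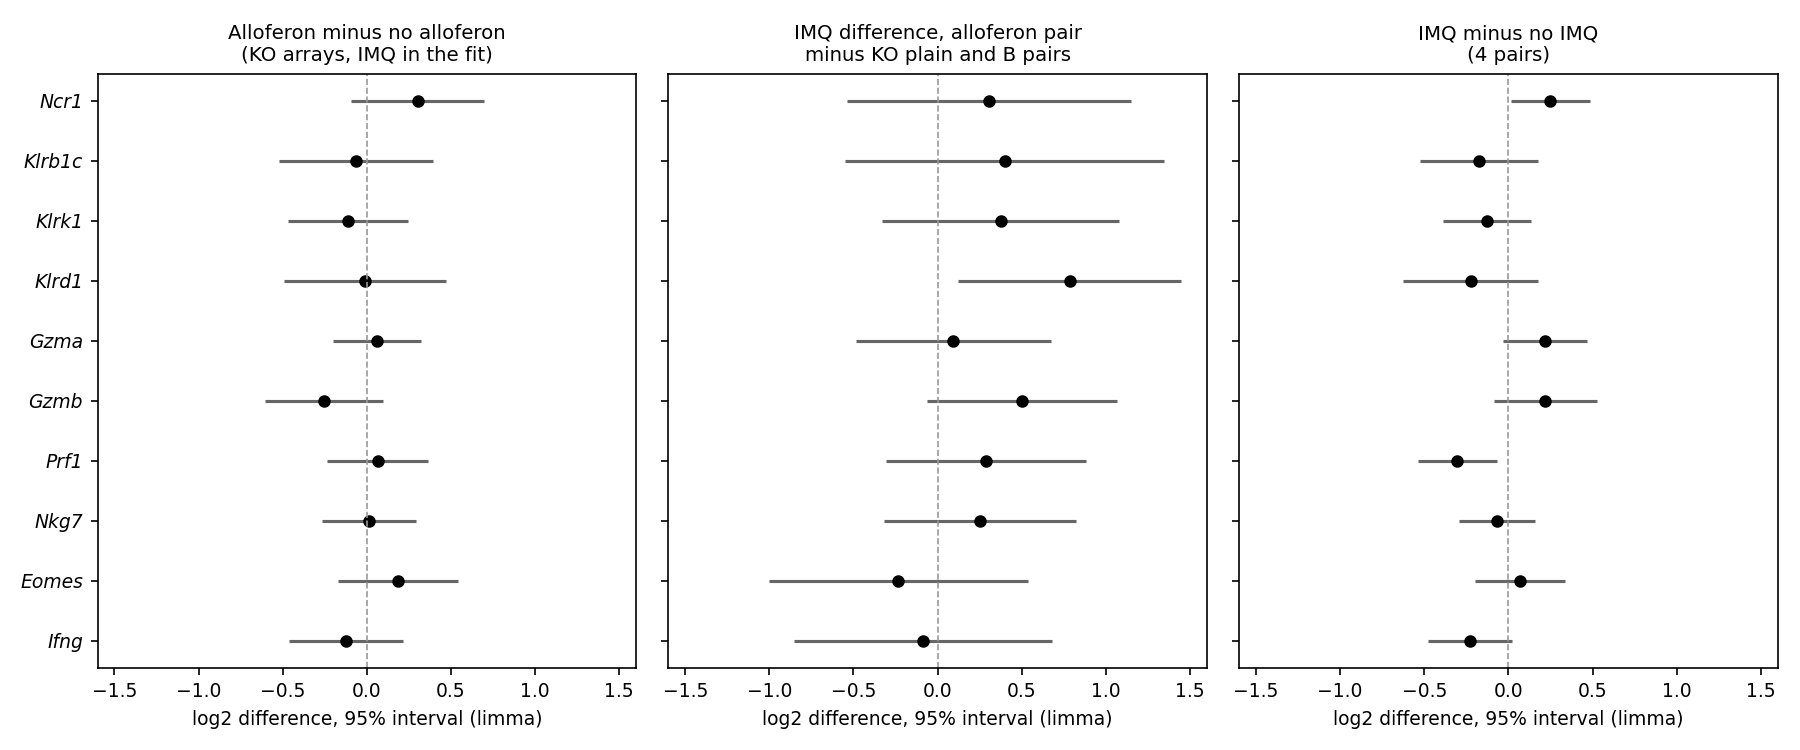
Log2 difference (horizontal axis) with its 95% interval from limma for each of the 10 genes: alloferon minus no alloferon on 6 KO arrays, the IMQ difference of the alloferon pair minus that of the KO plain and B pairs, and IMQ minus no IMQ over 4 pairs. All 10 intervals include 0 in the left panel; those of Klrd1 (middle) and of Ncr1 and Prf1 (right) do not include 0 but fail after adjustment over 22180 genes.

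The third comparison asks how IMQ alone changed these genes over the 4 pairs of arrays. 0 of 10 members passed, where 3.09% of all genes did, and the smallest adjusted p of a member was 0.162 (Prf1, limma). An unadjusted p under 0.05 was found for 2 members, Prf1 and Ncr1, and for 18.8% of all genes. The median over the members was -0.10 log2 units beside -0.01 over all genes. Prf1 had the largest size, at -0.30 ± 0.10 (SE), with -0.13 in the alloferon pair, -0.34 in the KO plain, -0.49 in the KO B and -0.25 in the WT pair. Prf1 thus read 5.96 to 6.26 on the 4 IMQ arrays, against 6.21 to 6.47 on the 4 others, and the groups overlapped by the arrays KO_IMQ_Allo and WT_CTRL. Ncr1 measured 0.25 ± 0.10 (adjusted p = 0.243) and was higher with IMQ in every pair, by 0.44, 0.06, 0.19 and 0.31 in the alloferon, plain, B and WT pairs.

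The granzyme genes Gzma and Gzmb had positive IMQ differences that did not pass. Gzma measured 0.22 ± 0.10 (adjusted p = 0.323), with 0.19, 0.08, 0.12 and 0.49 in the alloferon, plain, B and WT pairs. It read 3.55 to 3.69 on the IMQ arrays, against 3.09 to 3.55 on the others, and was the 1 member of 10 whose groups did not overlap, which held for 11% of all genes. Gzmb measured 0.22 ± 0.13 (adjusted p = 0.419), and 0.08 without the alloferon pair. Of the granzyme genes outside the 10, Gzmk measured -0.25 ± 0.11 and Gzmm -0.12 ± 0.10 (adjusted p = 0.282 and 0.577 in limma). Gzmg read higher with IMQ in the alloferon (5.16 against 4.48), B (4.89 against 4.60) and WT pairs (4.86 against 4.28). In the plain pair Gzmg read lower, at 4.53 against 4.64. Gzmc, Gzmd and Gzmf had pairs of both signs. Of these outside granzyme genes, Gzmc, Gzmd, Gzmf, Gzmg and Gzmk lay above the olfactory receptor line on 0 arrays and Gzmm on 6. Ifng measured -0.23 ± 0.10 (adjusted p = 0.306 in limma), Klrd1 -0.23 ± 0.17, Klrb1c -0.18 ± 0.15, Klrk1 -0.13 ± 0.11, Nkg7 -0.07 ± 0.09 and Eomes 0.07 ± 0.11. Without the alloferon pair Klrd1 measured -0.44. The same sign in 4 of 4 pairs was found for 3 of 10 members, Ncr1, Gzma and Prf1, and for 27% of all genes.

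The fourth comparison sets the KO arrays without alloferon against the WT arrays. 0 of 10 members and 0% of all genes passed in limma, and an unadjusted p under 0.05 was found for 0 members and for 5.14% of all genes. The members' differences ran from -0.09 (Klrk1) to 0.20 (Klrd1 and Gzma), with a median of 0.04 beside 0.01 over all genes and 95% intervals within -0.45 and 0.52. Gzma read 3.62 on KO_IMQ, 3.55 on KO_IMQ_B, 3.55 on KO_CTRL and 3.43 on KO_CTRL-B, against 3.58 on WT_IMQ and 3.09 on WT_CTRL. WT_CTRL alone lay below the KO arrays, and with IMQ the genotypes overlapped. For the difference in IMQ response between KO and WT, 0 members and 0% of all genes passed, and an unadjusted p under 0.05 was found for 0 members and 3.25% of all genes. The most negative value was that of Gzma, -0.39 ± 0.23, and the members' median was -0.17 beside 0.02 over all genes.

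Around these 10 genes, other genes of the NK and killer cell programme were examined in lists. With IMQ 1 of 22 other receptor and adaptor genes and 1 of 14 granule and release genes passed as higher. Of 7 transcription factor genes, 1 passed as lower. Since 3.09% of all genes were called, 1 gene in a list of this size says nothing about the list. Tyrobp, which encodes the adaptor DAP12 of NK and myeloid cells, read 7.02, 7.89, 8.11 and 7.77 on KO_IMQ_Allo, KO_IMQ, KO_IMQ_B and WT_IMQ, against 6.47, 6.52, 6.50 and 6.31 on KO_Allo, KO_CTRL, KO_CTRL-B and WT_CTRL. Its groups did not overlap, and it rose by 1.25 ± 0.18 log2 units (adjusted p = 0.0265 in limma). Ctsc, which encodes the protease that activates granzymes and also neutrophil serine proteases, rose by 0.83 ± 0.15 (adjusted p = 0.0421). Id2, a factor needed for NK and innate lymphoid cells but also made elsewhere in skin, fell by 0.78 ± 0.10 (adjusted p = 0.0207). When the WT pair, the plain pair or the B pair was left out, all 3 calls ended, with adjusted p-values of 0.0581 to 0.185 in limma. The differences were then 1.1 to 1.2 for Tyrobp, 0.71 to 0.84 for Ctsc and -0.80 to -0.70 for Id2. Without the alloferon pair all 3 passed, with adjusted p-values of 0.0025, 0.0107 and 0.0157 in limma. Other markers moved in the same arrays. All 9 monocyte and macrophage markers and all 9 neutrophil markers were higher with IMQ, and 4 of each list passed. Among them Adgre1, which encodes a macrophage surface protein, rose by 2.0 ± 0.23 (adjusted p = 0.0157 in limma). The averages of the macrophage markers were 8.4 to 9.0 on the IMQ arrays, against 7.6 to 8.0 on the others. All 14 hair follicle (median -2.55), all 11 skeletal muscle (median -1.34) and all 7 adipocyte markers (median -0.74) were lower with IMQ. Of these 12, 3 and 1 passed. Hair follicle markers averaged 5.21 to 8.19 on the IMQ arrays, against 7.55 to 10.17 on the others. The part of these cell contents in the values of Tyrobp, Ctsc and Id2 was not tested. No marker call held without the WT pair, where the fit called 0 genes.

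No other gene of the killer cell lists passed with IMQ. The counts were 0 of 6 contact-killing ligands and receptors, 0 of 12 activating cytokines and their receptors, 0 of 3 NKG2D ligands, 0 of 9 chemokines and receptors, 0 of 14 interferon gamma receptor and response genes and 0 of 4 granzyme inhibitors. With 3.09% of all genes called, lists this short would hold few calls in any case, and nothing is read from these counts. List medians were 0.03, 0.14, 0.69, 0.07, 0.02 and 0.07 log2 units, beside -0.01 over all genes. Among the NKG2D ligands, H60c, the form made by keratinocytes, measured 0.69 ± 0.15 (adjusted p = 0.0603) and Ulbp1 0.74 ± 0.19 (adjusted p = 0.0973). For IL-18 signalling, the cytokine gene Il18 measured 0.62 ± 0.16 (adjusted p = 0.10) and the receptor chain gene Il18rap 0.95 ± 0.24 (adjusted p = 0.0920). The IL-12 receptor chain gene Il12rb2 measured -1.01 ± 0.25 (adjusted p = 0.0867). T cell markers passed in 0 of 9. Resident and gamma delta T cell markers passed as higher in 2 of 8, where 3.09% of all genes passed. These were the receptor genes Il23r, by 1.34 ± 0.21, and Il7r, by 0.83 ± 0.10 (adjusted p = 0.0294 and 0.0174 in limma). Il23r lay above the olfactory receptor line on 1 of 8 arrays and Il7r on all 8. Both calls end without the WT pair, where 0 genes were called. Of the 8 markers 6 were higher and 2 lower, with differences down to -0.56 (Cd7) and 0 called as lower. Cd7 read 5.35, 5.99, 5.60 and 5.30 on KO_IMQ_Allo, KO_IMQ, KO_IMQ_B and WT_IMQ. On KO_Allo, KO_CTRL, KO_CTRL-B and WT_CTRL it read 5.79, 6.47, 5.79 and 6.41, so it was lower with IMQ in every pair.

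With alloferon 0 genes of any list passed. Of the 14 interferon gamma receptor and response genes 12 were lower and 2 higher on the alloferon arrays, with a median of -0.11 log2 units beside 0.0041 over all genes. Ifngr1, a chain of the interferon gamma receptor, measured -0.61 ± 0.21, and the interferon-inducible GTPase genes Igtp and Irgm1 -0.52 ± 0.12 each (all adjusted p = 0.962). Without alloferon Ifngr1 itself read 9.96 on KO_CTRL and 9.27 on KO_CTRL-B. The other chain gene, Ifngr2, read 8.65 on KO_IMQ_Allo, against 8.71 on KO_IMQ and 8.65 on KO_IMQ_B. On KO_Allo it read 8.30, against 8.21 on KO_CTRL and 8.17 on KO_CTRL-B. Of the 14 genes, 6 lay above the olfactory receptor line on all 8 arrays. Il18 measured 0.43 ± 0.16 and H60c 0.41 ± 0.13 (both adjusted p = 0.962). List medians of the other receptors, the granule genes, the contact-killing genes and the transcription factors were -0.02, -0.06, -0.03 and -0.09 log2 units, and those of the activating cytokines, NKG2D ligands, chemokines and granzyme inhibitors 0.02, 0.32, 0.01 and -0.14. Cell markers moved in both directions in the same comparison without passing. Of macrophage markers 8 of 9 were lower (median -0.13), as were 10 of 11 muscle (-0.64), 7 of 7 adipocyte (-0.68) and 4 of 5 B cell markers (-0.07). Lower too were 6 of 8 resident and gamma delta T cell (-0.17), 5 of 9 neutrophil (-0.12) and 5 of 6 endothelial markers (-0.09). Higher were 10 of 14 hair follicle (0.20), 4 of 5 keratinocyte (0.17) and 6 of 8 mast cell markers (0.10). T cell markers were mixed, with 5 of 9 higher, a median of 0.07 and differences from -0.79 (Cd3g) to 0.62 (Cd4). Fibroblast markers were 3 higher and 3 lower (0.01). Their part in the values of the interferon gamma response genes was not tested.

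**Figure D4:**
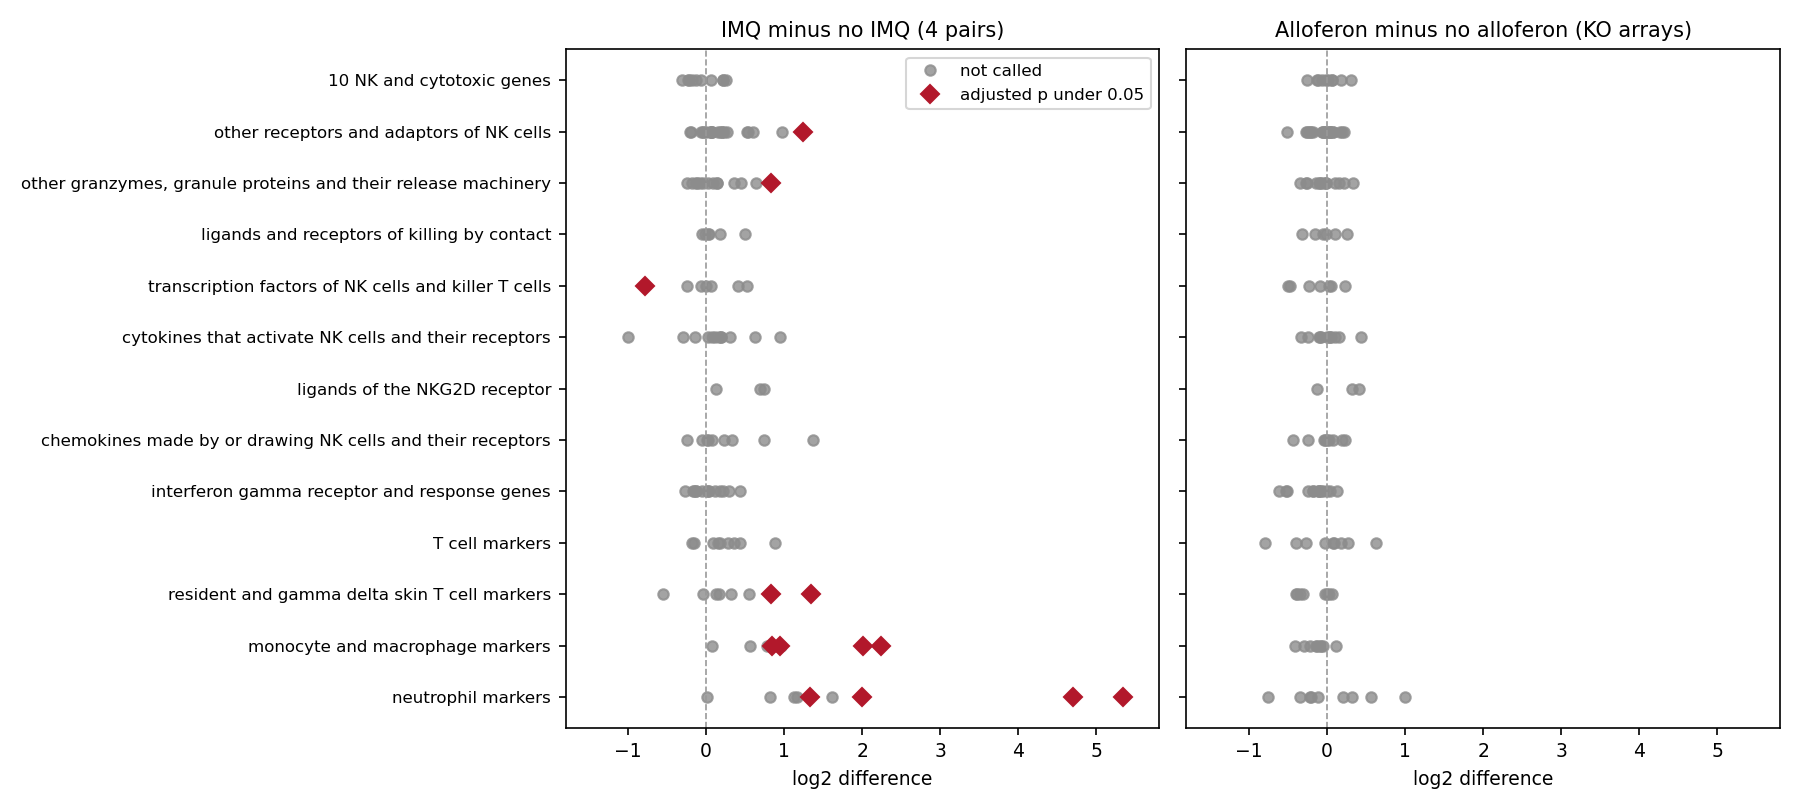
Log2 difference (horizontal axis) of every measured gene of the 10 members, the other killer cell lists apart from the granzyme inhibitors, and 4 cell marker lists, for IMQ minus no IMQ over 4 pairs and for alloferon minus no alloferon on 6 KO arrays; a red diamond is a gene with an adjusted p under 0.05. The 10 members lie within -0.30 and 0.25 with IMQ, while called genes lie mostly in the macrophage and neutrophil rows, and alloferon has no called gene.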

How the data were processed

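Expression was measured in dorsal skin RNA on 8 arrays, 1 per label. The authors deposited log2 expression values for 41345 probe sets, which Affymetrix Power Tools made by RMA. The source is the submitters' processing notes, which also name R 3.3.2 without a role. RMA corrects background, equalises the arrays' distributions and compresses differences of dim genes. The number of arrays limits the precision.

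Gene symbols came from the annotation of the platform: 23521 had 1 symbol, 1814 several and 16010 none. Entrez identifiers of 23328 matched RefSeq, the 10 members among them. A gene's probe set with the highest mean was used, which gave 22180 genes without a filter on dim genes. Tests used limma 3.58.1 in R 4.3.3 (lmFit, eBayes, Benjamini-Hochberg over all genes, called at an adjusted p under 0.05). The IMQ fit had a level per arm and 3 residual degrees of freedom; the alloferon and genotype fits had IMQ as a covariate and 3; both interaction fits had 2. The fits were also run on simulated data with known differences. That run checked only that the mean estimate matched the known difference, and the share recovered is not reported here. Errors are standard errors from limma.

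The members and lists were chosen with earlier results of these data known. All members are named; of other lists, called genes or up to 3 with the largest differences were eligible. Genes most like a member were to be named where it ranged over 1 log2 unit or more, which 0 members did. The olfactory receptor line was chosen after the values were seen.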

Additional observations from a re-analysis of the deposited data

How the results depend on the processing

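Of the members, 0 were called in any of the 5 comparisons under every alternative that could be fitted: 13 for IMQ, 12 each for alloferon and for KO against WT, and 8 for each interaction. In the IMQ fit, leaving out an array removed its whole pair, so each left-out pair entered the 13 once for each of its arrays. The lowest adjusted p of a member in any of them was 0.0898 (Prf1, IMQ, without dim probe sets, where Prf1 and Nkg7 alone were tested). Leaving out an alloferon array from the alloferon interaction, or a WT array from the genotype interaction, leaves no fit. Over all genes the IMQ fit called 685, but 0 without the WT pair, 2 without the B pair and 260 without the plain KO pair. It called 1307 without the alloferon pair and 1028 without dim probe sets. KO against WT called 8 genes with plain KO arrays alone and 0 in the other alternatives. 

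Of 490 values of members under alternatives, 38 changed sign, and none of these was called. The largest size in the reported fits among them was 0.19. Both counts hold the values of each left-out IMQ pair once for each of its arrays. No replicate numbers are given by the labels. No paired analysis was possible because each label has 1 array, apart from the level per arm that the IMQ fit already holds. The KO against WT difference turned to 0.13 for Ncr1, 0.016 for Klrk1 and -0.031 for Eomes with plain KO arrays alone, and to 0.049 for Klrb1c and -0.11 for Ifng with B arrays alone. The alloferon difference turned to 0.012 for Klrb1c, 0.066 for Klrd1 and -0.024 for Nkg7 with plain KO arrays alone, to 0.0091 for Ifng with B arrays alone, and to -0.0025 for Nkg7 with arrays centred on their median. Leaving out 1 array at a time, or 1 pair at a time for IMQ, gave these ranges for the members whose sign turned. For alloferon they were -0.26 to 0.13 for Klrb1c, -0.40 to 0.38 for Klrd1, -0.30 to 0.076 for Klrk1, -0.11 to 0.14 for Nkg7 and -0.079 to 0.21 for Prf1. For the alloferon interaction the range was -0.26 to 0.085 for Ifng. For IMQ they were -0.041 to 0.11 for Eomes and -0.25 to 0.0023 for Klrb1c. For KO against WT they were -0.045 to 0.15 for Eomes, -0.13 to 0.18 for Ifng, -0.18 to 0.12 for Klrb1c, -0.13 to 0.057 for Ncr1 and -0.16 to 0.026 for Nkg7. For the genotype interaction they were -0.0016 to 0.38 for Eomes, -0.020 to 0.24 for Klrk1 and -0.37 to 0.013 for Ncr1. The cause was not tested.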

Other observations

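Outside the 10 genes, several genes of the killer cell lists were high on KO_Allo and low on KO_IMQ_Allo. Ccl3, a chemokine gene of macrophages, mast cells and NK cells, read 4.86 on KO_IMQ_Allo and 8.03 on KO_Allo. In the other pairs the IMQ array was the higher: 6.47 on KO_IMQ against 4.85 on KO_CTRL, 8.39 on KO_IMQ_B against 5.14 on KO_CTRL-B, and 7.93 on WT_IMQ against 4.15 on WT_CTRL. Ccl4, a related chemokine gene, read 5.39 on KO_IMQ_Allo and 6.54 on KO_Allo. It read 6.10 on KO_IMQ against 5.66 on KO_CTRL and 6.66 on KO_IMQ_B against 5.56 on KO_CTRL-B, but its WT pair was also lower with IMQ, at 5.86 on WT_IMQ against 5.96 on WT_CTRL. Srgn, the granule proteoglycan gene, read 6.77 on KO_IMQ_Allo and 7.75 on KO_Allo. It read 8.07 on KO_IMQ against 7.12 on KO_CTRL, 8.16 on KO_IMQ_B against 6.79 on KO_CTRL-B and 8.05 on WT_IMQ against 6.81 on WT_CTRL. The difference of the alloferon pair from the plain and B pairs was -5.60 ± 1.08 log2 units for Ccl3, -1.92 ± 0.38 for Ccl4 and -2.14 ± 0.28 for Srgn (adjusted p = 0.712, 0.712 and 0.586 in limma). None of the 3 passed, and each rests on 1 pair of alloferon arrays. Mast cell markers averaged 5.64 on KO_IMQ_Allo and 6.32 on KO_Allo, against 6.08 on KO_IMQ, 6.03 on KO_IMQ_B, 5.73 on KO_CTRL and 5.44 on KO_CTRL-B; their part in these values was not tested.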
